A study of Mus musculus with 12 samples.

Results

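The matricellular scar proteins described here are the products of 10 genes: *Comp* (cartilage oligomeric matrix protein), *Cilp* (cartilage intermediate layer protein), *Postn* (periostin), the thrombospondin genes *Thbs1*, *Thbs2* and *Thbs4*, *Tnc* (tenascin C), *Sparc* (osteonectin), *Spp1* (osteopontin) and *Fn1* (fibronectin). They were taken by symbol from an RNA table of mouse heart muscle. All 10 were found among its 33641 gene symbols, on 57 of its 105129 transcript rows. The genes were chosen by name with earlier results of the same table known, in particular their TPM levels in infarcted against sham hearts of mice without drug. Those levels are therefore given as a description, and no test of them is used as support.

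Myocardium was sampled from 12 male wild-type C57BL/6 mice, 3 in each of 4 groups. The mice had a sham operation or surgery that caused a myocardial infarction (MI), and then weekly injections of vehicle or of prednisone, a synthetic glucocorticoid, for 6 weeks. Sham vehicle, sham prednisone, MI vehicle and MI prednisone are the names used for the groups below. Prednisone was injected into the abdominal cavity at 1 mg/kg from 2 weeks after surgery, at lights-on, diluted in saline buffer from a stock in DMSO, and each heart was sampled 24 hours after the final injection. An age of about 16 weeks is given in the sample labels and of about 10 weeks in the treatment protocol. How the infarct was made, which region of the heart was taken and whether the tissue held scar, border or remote muscle is not given in the sources used here. No transgene or deletion is named for any group.

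Matricellular proteins are secreted into the extracellular matrix without being its main load-bearing fibres. They bind collagens, growth factors, proteases and cell surface receptors such as integrins, and so change how cells attach, migrate and lay down matrix. In the adult heart most of them are scarce and are known to be made by fibroblasts, myofibroblasts and macrophages when an infarct heals into a scar.

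Values are TPM, the share of a transcript among all transcripts of its library corrected for transcript length, so levels can be compared between genes. The number of reads behind them is unknown. The label of heart muscle was checked against its markers: 8 of 8 cardiomyocyte markers (*Myh6*, *Tnnt2*, *Tnni3* and others) passed the filter, and they summed to between 30114 TPM in an MI vehicle library and 49239.7 TPM in a sham prednisone library. Some libraries stood apart from the rest. Replicate 3 of MI vehicle lay apart on the first principal component of all genes (48.5% of the variance) and had the most genes at 1 TPM or more, 14307. The 3 MI prednisone libraries lay apart on the second (20.9%). In them, genes with short transcript models at the 3′ end had on average more of their TPM assigned to those models. A short model here is under 50% as long as the longest coding model of its gene and ends within 500 bases of its 3′ end. Over 1006 genes that have such a model, it held on average 26.7%, 26.2% and 18.9% of the TPM of the gene in replicates 1 to 3 of MI prednisone, whereas the remaining 9 libraries ranged from 8.94% to 10.7%. For the tested members, results that rest on these libraries are given below with values that do and do not depend on the short models. Other gene lists and cell markers are given from gene sums of TPM alone.

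Together the 10 genes held 162 to 206 TPM in the sham libraries, 453 to 977 TPM in MI vehicle and 276 to 444 TPM in MI prednisone. *Sparc* was the most abundant of them in each of the 12 libraries. Of the 10 genes, 9 passed the filter on low values (at least 1 TPM in at least 3 libraries). *Tnc* did not, with 2 libraries at 1 TPM or more, and *Spp1* passed through its MI libraries alone, so that a difference of *Spp1* between MI and sham was needed for it to be tested.

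In vehicle-treated mice all 9 tested genes had their MI libraries above all sham libraries, as did 40.8% of all 13158 genes tested. All genes were fitted together in limma, a linear model on log2(TPM + 1), and a call means an adjusted p below 0.05. In this comparison the fit called 16.0% of all genes (15.1% higher), the 9 members among them. Since the genes were listed with this comparison known, and *Spp1* was tested only through its MI libraries, that count is no test of the members and nothing is read from it.

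Between MI and sham mice that had all received prednisone, 5 of the 9 tested genes rose, *Comp*, *Cilp*, *Postn*, *Thbs4* and *Sparc*, and 1 fell, *Thbs2*. The background in this comparison was 16.8% of all genes called, 2.73% higher and 14.1% lower. Groups did not overlap in 6 members with MI higher (12.9% of all genes) and in 1 with MI lower (32.2% of all genes). The median change of the 9 members was 0.89 on the log2 scale, against -0.06 for all genes. That median is the value of *Spp1*, which is also among the 6 members without overlap. Since *Spp1* was tested only through its MI libraries, the median and the count of 6 are a description. No library of this comparison had entered the one with which the genes were listed. The choice was still made with earlier results of the same table known, and the fit takes its spread from all 12 libraries. The comparison is therefore not fully independent of the choice.

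Prednisone set against vehicle in infarcted hearts left 8 of 9 tested genes lower, all but *Postn*, and none higher. The background was large: 37.4% of all genes were called, 34.9% lower and 2.50% higher, and 42.6% did not overlap with prednisone lower, as did 7 members. The median change was -1.61 for the members and -0.41 for all genes. This comparison shares its MI vehicle libraries with the one known when the genes were listed, so a high level there is built into the falls. The p values of the falls, here and for single genes and transcripts below, are thus a description and no independent support. In sham hearts prednisone moved none of the 9 genes (limma adjusted p = 1 for each). None had an unadjusted p under 0.05, as 469 of all genes did, and each alternative analysis also called none, against a background of 0.114% of all genes called.

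**Figure D1:**
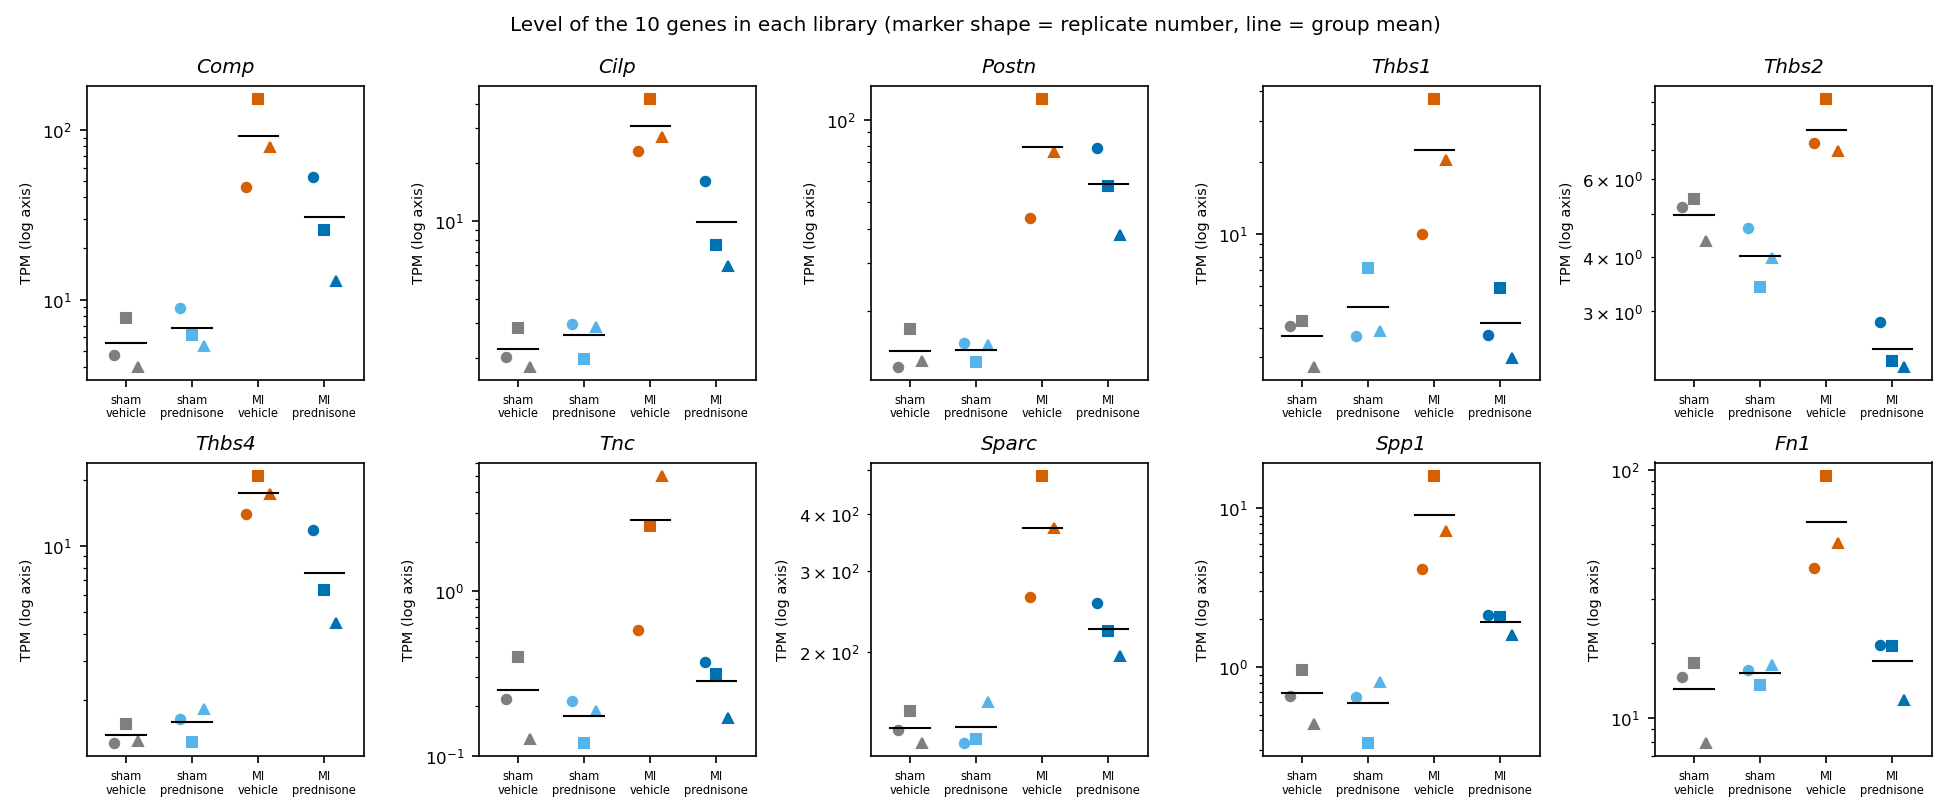
TPM (log axis) of each of the 10 genes in the 12 libraries by group, with marker shape for the replicate number and a line at the group mean. MI vehicle is the highest group in every panel, and its replicate 2 is the highest library in every panel but that of *Tnc*, where replicate 3 is.

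The products of *Comp* and *Postn* bind or organise collagen fibrils. *Comp* encodes a pentameric protein of the thrombospondin family, known from cartilage and tendon, that brings collagen molecules together. Its level was 4.70, 7.80 and 4.02 TPM in sham vehicle, 8.91, 6.22 and 5.34 TPM in sham prednisone, 46.0, 152 and 79.0 TPM in MI vehicle and 53.1, 25.8 and 12.9 TPM in MI prednisone, for replicates 1 to 3. All 6 MI libraries lay above all 6 sham libraries, and replicate 1 of MI prednisone lay within the range of MI vehicle. The mean was 16.7 times as high in MI vehicle as in sham vehicle, the widest ratio of the 10 genes. Under prednisone *Comp* rose in MI by 1.82 on the log2 scale (SE 0.49, limma adjusted p = 0.0283). Between the MI groups it fell with the drug by 1.61 (SE 0.49, limma adjusted p = 0.0258).

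Both *Comp* calls rested on single libraries. The rise under prednisone was lost on leaving out any one of its 6 libraries except replicate 3 of MI prednisone, with limma adjusted p up to 0.11, and the fall was lost without replicate 2 or 3 of either MI group, with adjusted p between 0.0515 and 0.0937. After median-ratio rescaling, which centres the median gene at the same level in all libraries, the fall was -1.16 (limma adjusted p = 0.101).

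*Cilp* encodes a matrix protein of cartilage that is also made by cardiac fibroblasts and binds TGF-beta. It was listed at 2.02, 2.83 and 1.80 TPM in sham vehicle, 2.97, 1.97 and 2.89 TPM in sham prednisone, 22.8, 42.2 and 27.2 TPM in MI vehicle and 16.2, 7.56 and 5.93 TPM in MI prednisone. The MI groups overlapped neither each other nor the sham groups, and MI prednisone lay between. *Cilp* rose in MI under prednisone by 1.49 (SE 0.32, limma adjusted p = 0.00965), a call that held on leaving out each library in turn (adjusted p up to 0.0463). It fell with prednisone in MI by 1.61 (SE 0.32, limma adjusted p = 0.00394), likewise held on leaving out each library (up to 0.0183), but not after a correction for transcript length (-1.01, adjusted p = 0.0648).

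*Postn* encodes periostin, which promotes collagen cross-linking and is a known product of activated fibroblasts. Its level was 12.6, 17.3 and 13.2 TPM in sham vehicle, 15.3, 13.1 and 15.1 TPM in sham prednisone, 44.0, 119 and 76.4 TPM in MI vehicle and 79.0, 57.5 and 37.9 TPM in MI prednisone. The 2 MI groups overlapped, and both lay above all sham libraries. *Postn* rose in MI under prednisone by 1.87 (SE 0.33, limma adjusted p = 0.00407), and held that call on leaving out each library in turn (up to 0.0233). Prednisone in MI gave -0.40 (SE 0.33, limma adjusted p = 0.345), the one tested member not called in that comparison. Leaving out each library in turn gave -0.77 to -0.059 (limma adjusted p from 0.0465 to 0.884). *Postn* was thus called lower in 1 of these fits. Its summed value hides opposite changes of long and short transcripts, which are described further on.

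Periostin is made in forms that differ in short exons near the C-terminal end, each of which can be left out without shifting the reading frame. One of these exons, of 84 bases, is shown because its inclusion differed between sham and infarcted hearts, and another, of 81 bases, because it lies in the same region and did not part the groups under prednisone. They were chosen after the values had been seen, from the 5 exons of at least 30 bases that differ between the full-length coding models of a member. The fifth, in *Tnc*, was left untested, since its models held under 0.4 TPM in the sham libraries. The 84-base exon is at chr3:54385671-54385754 (GRCm38, plus strand), exon 20 of the model Postn-201, and the 81-base exon at chr3:54380412-54380492, exon 17 of Postn-202, both coding exons of *Postn*. They are given 5′ to 3′ from the GENCODE M21 transcripts, with the exon in capitals and 10 bases of the neighbouring exons in lower case.
Postn 84-base exon: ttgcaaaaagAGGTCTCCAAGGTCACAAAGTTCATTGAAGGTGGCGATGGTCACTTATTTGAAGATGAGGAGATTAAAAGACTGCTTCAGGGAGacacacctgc
Postn 81-base exon: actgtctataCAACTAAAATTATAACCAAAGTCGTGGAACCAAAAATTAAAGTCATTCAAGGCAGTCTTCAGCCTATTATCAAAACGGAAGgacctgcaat

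Inclusion is the share of the TPM of full-length coding models that lies in models with the exon. For the 84-base exon it was 29.7%, 35.7% and 38.1% for sham vehicle, 32.2%, 29.6% and 40.5% for sham prednisone, 54.8%, 50.6% and 54.95% for MI vehicle and 50.6%, 54.9% and 65.4% for MI prednisone. By this share every infarcted heart lay above every sham heart, with or without the drug. The share comes from TPM assigned to models and not from reads over the exon. In MI prednisone short 3′ models held 52.7%, 61.0% and 51.9% of *Postn*, and the full-length models 17.6 to 30.7 TPM. Between prednisone-treated groups the difference was 22.9 percentage points (two-sided exact permutation test over 20 regroupings, p = 0.1, the smallest that 3 against 3 mice allow, and 0.2 adjusted over 4 exons), and between vehicle groups 18.9 points. Model Postn-201, with this exon, went from 0.83 to 4.86 TPM in the 6 sham libraries to 11.3 to 53.2 TPM in the 6 MI libraries. Model Postn-204, which lacks both exons, was at 2.60 to 6.88 TPM in sham libraries and at 0.77 to 7.58 TPM in MI libraries.

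The 81-base exon was included in 36.8%, 25.4% and 27.9% for sham vehicle, 29.4%, 34.7% and 37.8% for sham prednisone, 42.2%, 42.2% and 44.0% in MI vehicle and 46.7%, 33.3% and 26.0% in MI prednisone. MI vehicle lay above both sham groups, whereas MI prednisone spanned them. The difference under prednisone was 1.36 points (exact permutation test, p = 0.9).

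**Figure D2:**
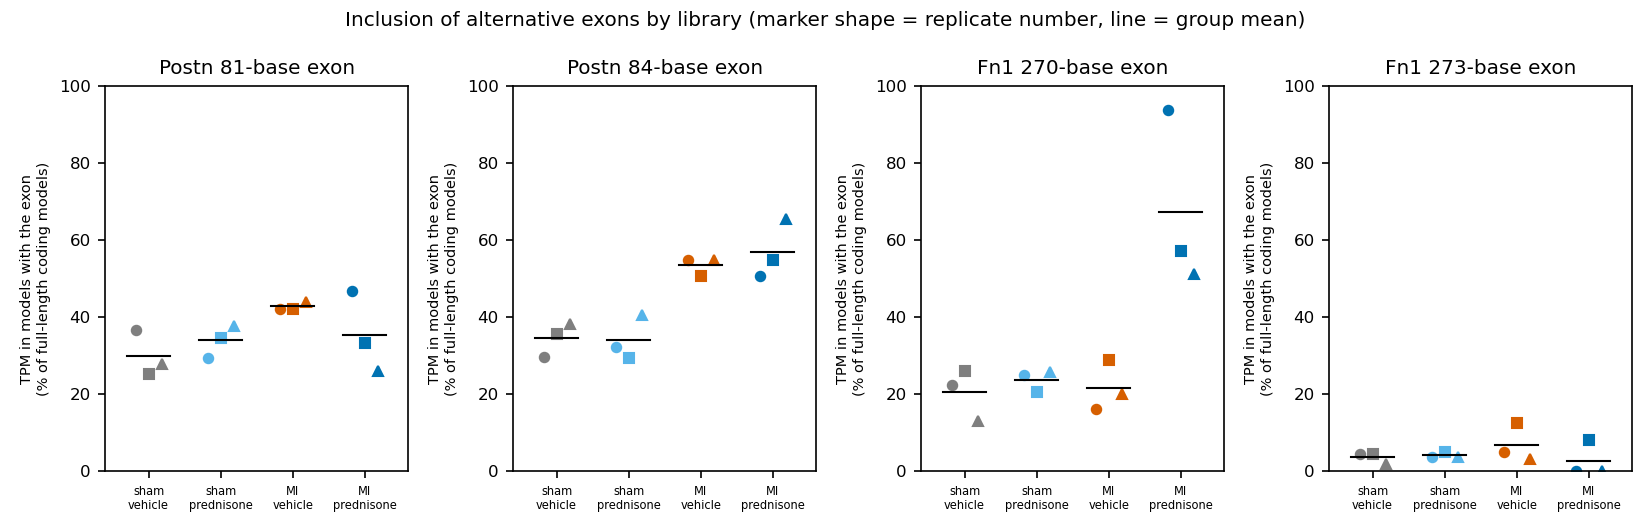
Inclusion (% of the TPM of full-length coding models) of 2 alternative exons of *Postn* and 2 of *Fn1* in the 12 libraries by group, with marker shape for the replicate number and a line at the group mean. For the 84-base exon of *Postn* all MI libraries are at 50.6% or above and all sham libraries at 40.5% or below; in MI prednisone the *Fn1* shares rest on 1.23 to 2.68 TPM.

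Just upstream of their starts, *Cilp* and *Postn* both carry a known core promoter motif, written TATATAA, and their windows are shown because the motif was found there. Both genes stood above sham in all 6 MI libraries, but so did *Thbs4*, *Sparc* and *Spp1*, whose windows do not hold these letters. RefSeq promoter windows (GRCm38.p6) matched 7 of the 10 genes, not *Comp*, *Thbs1* or *Fn1*. Searched on both strands over 250 bases upstream, TATATAA was in 2 of the 7 and in 3.04% of all 32817 windows. Other motifs were searched in the same way. The E-box CANNTG was found in 6 of the 7 members' windows and in 66.2% of all windows. The Smad-binding letters CAGACA were found in 4 of the 7, against 17.1% of all windows. The GC box GGGCGG was in 2 members' windows and in 32.7% of all. The TEAD motif CATTCC was in 1 member's window and in 12.6% of all. The AP-1 motif TGANTCA (6.75% of all windows) and the palindromic glucocorticoid response element (0.00914%) were in none of the 7. The 120 bases before each start are given 5′ to 3′ with that motif in capitals, at chr9:65265060-65265179 for *Cilp* and chr3:54360987-54361106 for *Postn*, both on the plus strand.
Cilp promoter: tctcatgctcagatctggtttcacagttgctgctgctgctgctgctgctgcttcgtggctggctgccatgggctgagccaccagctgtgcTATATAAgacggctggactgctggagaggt
Postn promoter: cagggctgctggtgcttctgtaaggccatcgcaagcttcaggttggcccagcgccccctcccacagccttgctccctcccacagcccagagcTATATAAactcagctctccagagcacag

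The 3 thrombospondin genes parted in their behaviour. Thrombospondin 1, encoded by *Thbs1*, activates latent TGF-beta and inhibits vessel growth. *Thbs1* was at 4.07, 4.26 and 2.75 TPM in sham vehicle, 3.69, 7.17 and 3.90 TPM in sham prednisone, 9.92, 36.9 and 20.5 TPM in MI vehicle and 3.72, 5.90 and 3.00 TPM in MI prednisone. MI vehicle lay above all other groups, and MI prednisone lay within the range of the sham libraries. No rise in MI was detected under prednisone (-0.18, SE 0.40, limma adjusted p = 0.811), and the sign turned after the length correction (0.22). Set against MI vehicle, *Thbs1* fell by 2.03 (SE 0.40, limma adjusted p = 0.00374). This fall was called on leaving out each library (adjusted p up to 0.0163), after median-ratio rescaling (-1.62) and after the length correction (-1.37).

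*Thbs2* encodes a relative that inhibits vessel growth and, unlike thrombospondin 1, does not activate TGF-beta. Its 3 libraries per group were at 5.19, 5.42 and 4.34 TPM in sham vehicle, 4.65, 3.4 and 3.98 TPM in sham prednisone, 7.24, 9.12 and 6.95 TPM in MI vehicle and 2.85, 2.31 and 2.25 TPM in MI prednisone. MI libraries were above sham without the drug and below sham with it, with no overlap in either case. Under prednisone *Thbs2* fell in MI by 0.53 (SE 0.15, limma adjusted p = 0.0381), but the call was lost on leaving out any one of the 6 libraries (adjusted p from 0.0542 to 0.152), with the replicate number as a block (0.0528), after median-ratio rescaling (-0.45, 0.0964) and after the length correction (-0.12). Against MI vehicle it fell by 1.33 (SE 0.15, limma adjusted p = 0.00058). That fall stayed called after median-ratio rescaling (-0.96) and when transcript length was corrected for (-0.67).

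*Thbs4* encodes thrombospondin 4, a pentamer found in tendon, muscle and the stressed heart. It stood at 1.27, 1.56 and 1.30 TPM in sham vehicle, 1.63, 1.28 and 1.82 TPM in sham prednisone, 14.0, 21.0 and 17.3 TPM in MI vehicle and 11.8, 6.32 and 4.49 TPM in MI prednisone. No library of one MI group reached the other, and all 6 were above all sham libraries. Under prednisone *Thbs4* rose in MI by 1.64 (SE 0.27, limma adjusted p = 0.00293), a call kept on leaving out each library in turn (up to 0.0178). In infarcted hearts it fell with the drug by 1.18 (SE 0.27, limma adjusted p = 0.0067), a change not past the threshold after median-ratio rescaling (-0.76, 0.0586) or when transcript length was corrected for (-0.66, 0.124).

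Tenascin C, the product of *Tnc*, is a large hexameric protein known to appear at sites of tissue injury. *Tnc* was low throughout, at 0.223, 0.399 and 0.126 TPM in sham vehicle, 0.216, 0.119 and 0.187 TPM in sham prednisone, 0.582, 2.50 and 5.04 TPM in MI vehicle and 0.373, 0.314 and 0.170 TPM in MI prednisone. MI vehicle was above every other library, and MI prednisone overlapped the sham groups. The highest value was in replicate 3 of MI vehicle, the library that lay apart from all others. Without the filter on low values, in a fit of 23629 genes, *Tnc* changed with prednisone in MI by -1.33 (SE 0.37, limma adjusted p = 0.0361) and between MI and sham under prednisone by 0.13 (limma adjusted p = 0.953).

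*Sparc* encodes osteonectin, a collagen-binding protein that takes part in the maturation of collagen fibrils. Its level was 135, 148 and 127 TPM in sham vehicle, 127, 129 and 155 TPM in sham prednisone, 264, 485 and 373 TPM in MI vehicle and 256, 223 and 196 TPM in MI prednisone. The order from sham to MI prednisone to MI vehicle held without overlap, narrowly so between the highest MI prednisone and the lowest MI vehicle library. *Sparc* rose in MI under prednisone by 0.71 (SE 0.19, limma adjusted p = 0.0286). In infarcted hearts it fell with the drug by 0.70 (SE 0.19, limma adjusted p = 0.0167). The rise was lost without replicate 1 or 2 of either prednisone group (adjusted p from 0.0858 to 0.114). The fall was lost without replicate 3 of MI prednisone (0.0556), after median-ratio rescaling (-0.24, 0.399) and after the length correction (-0.29, 0.345).

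Osteopontin, encoded by *Spp1*, is a secreted phosphoprotein that binds integrins and CD44 and is made by macrophages in injured tissue. *Spp1* was at 0.660, 0.966 and 0.442 TPM in sham vehicle, 0.647, 0.333 and 0.809 TPM in sham prednisone, 4.16, 16.0 and 7.25 TPM in MI vehicle and 2.13, 2.09 and 1.60 TPM in MI prednisone. Each MI group was above sham and apart from the other. The change in MI under prednisone, 0.89 (SE 0.35), was not called (limma adjusted p = 0.106), although it was with a pseudocount of 0.1 (1.61, 0.035), which weighs low values more. With prednisone in MI *Spp1* fell by 1.62 (SE 0.35, limma adjusted p = 0.00539). This call was kept after median-ratio rescaling (-1.25) and when transcript length was corrected for (-1.36).

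Fibronectin, from *Fn1*, is a fibre-forming adhesion protein on which collagen assembles. *Fn1* was at 14.6, 16.6 and 7.92 TPM in sham vehicle, 15.7, 13.5 and 16.3 TPM in sham prednisone, 40.1, 94.4 and 50.5 TPM in MI vehicle and 19.6, 19.5 and 11.9 TPM in MI prednisone. MI vehicle stood apart from the other 3 groups, which overlapped one another. No rise in MI was detected under prednisone (0.12, SE 0.33, limma adjusted p = 0.84). In MI prednisone against MI vehicle *Fn1* fell by 1.74 (SE 0.33, limma adjusted p = 0.00314), a call kept after median-ratio rescaling (-1.29) but not after the length correction (-1.07, 0.0583).

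The extra domain A exon of *Fn1*, 270 bases at chr1:71603660-71603929 (GRCm38, minus strand, exon 33 of Fn1-201), is the alternative coding exon by which the cellular form of fibronectin is known. It is shown for its contrast with the periostin exon, since its inclusion did not differ beyond the spread of the mice without the drug. The exon is in capitals, with 10 bases of each neighbouring exon in lower case.
Fn1 270-base exon: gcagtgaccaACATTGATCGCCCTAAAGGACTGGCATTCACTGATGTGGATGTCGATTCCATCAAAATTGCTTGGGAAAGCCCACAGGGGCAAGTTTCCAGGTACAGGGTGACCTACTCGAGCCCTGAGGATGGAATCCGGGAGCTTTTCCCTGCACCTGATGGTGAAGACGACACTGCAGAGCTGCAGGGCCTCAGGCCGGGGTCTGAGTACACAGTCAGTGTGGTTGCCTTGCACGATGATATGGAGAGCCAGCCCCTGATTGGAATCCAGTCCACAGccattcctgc

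Inclusion of this exon was 22.5%, 26.1% and 13.1% for sham vehicle, 25.0%, 20.7% and 25.8% for sham prednisone, 16.1%, 29.0% and 20.0% for MI vehicle and 93.7%, 57.2% and 51.2% in MI prednisone. Sham and MI vehicle overlapped in this share, while the *Fn1* level was 4.73-fold higher in MI vehicle. The mean share differed by 1.11 points between the vehicle groups, which was not tested. In MI prednisone the share was above all other libraries (43.5 points above sham prednisone, exact permutation test p = 0.1, the smallest possible, and 0.2 adjusted over 4 exons), but the full-length coding models it is taken from held only 1.23, 1.61 and 2.68 TPM there, against 6.46 to 67.9 TPM in the other 9 libraries. The extra domain B exon, of 273 bases at chr1:71613763-71614035, was included in 0% to 12.5% of full-length RNA in the 12 libraries, and sham and MI overlapped under both treatments (exact permutation test, p = 0.6 under prednisone).

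**Figure D3:**
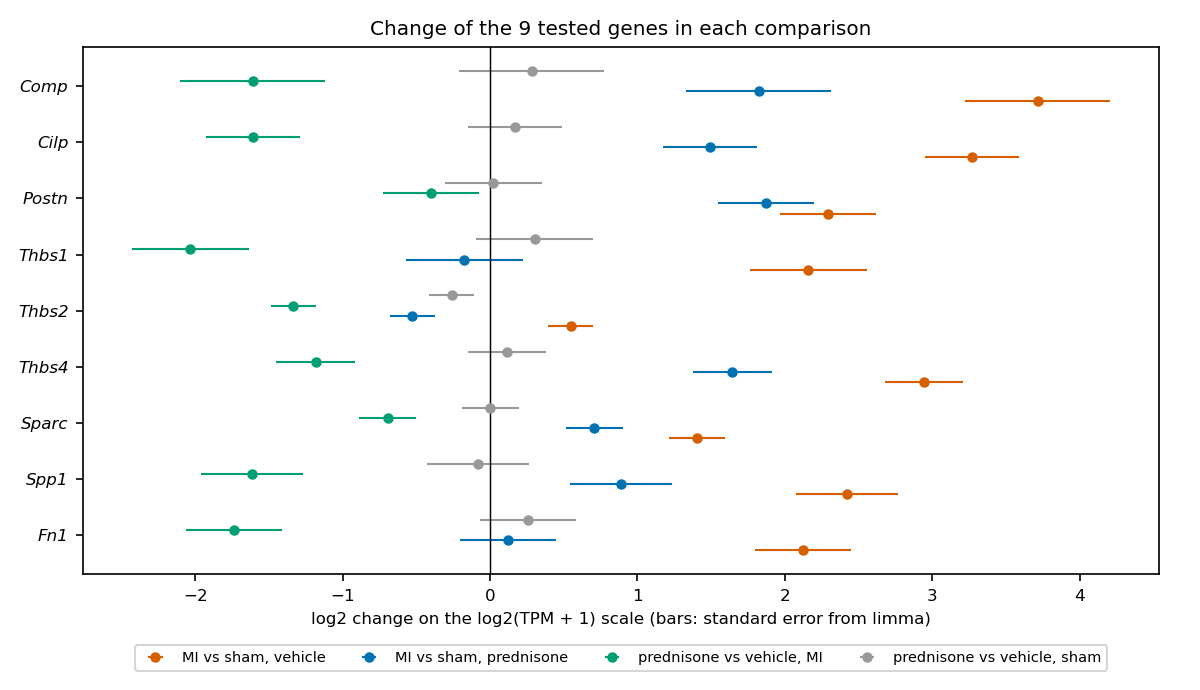
Log2 change of the 9 tested genes in 4 comparisons, on the log2(TPM + 1) scale, with bars for the limma standard error. The changes in MI against sham under prednisone (blue) are spread from -0.53 for *Thbs2* to 1.87 for *Postn*, whereas those with prednisone in sham hearts (grey) lie between -0.26 and 0.30.

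At the level of single transcripts, 23 rows of the members were tested. Under prednisone 8 were called higher and 3 lower in MI, where 22.3% of all 27769 transcript rows were called (6.75% higher and 15.6% lower). Between the MI groups 2 were higher and 14 lower with the drug, against 33.0% of all rows (5.92% higher and 27.1% lower). In sham hearts none was called (0.0540% of all rows). With vehicle 12 were higher in MI and none lower (2.84% of all rows, 2.66% higher). Comp-203, Fn1-204 and Spp1-201 reached 1 TPM in MI libraries alone, and Fn1-201 in MI vehicle alone. Comp-203 is among the rows called higher in MI under prednisone. Spp1-201 and Fn1-201 are among those called lower with prednisone in MI. A difference was needed for such rows to be tested, so all these counts are a description. For *Cilp*, *Thbs1*, *Thbs2*, *Thbs4* and *Spp1*, 1 model held 93.8% or more of the mean TPM of the gene over all libraries. In single libraries Spp1-201 held as little as 20.0% of *Spp1* (replicate 2 of sham prednisone, where the gene was low).

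*Postn*, *Fn1*, *Comp* and *Sparc* did not. Postn-206 and Postn-205, of 655 and 900 bases, lie at the 3′ end of the gene. They were the only 2 member transcripts higher with prednisone in MI (by 1.90 with an SE of 0.51 and a limma adjusted p of 0.0156, and by 1.71 with 0.33 and 0.00351). Postn-206 was at 2.72, 9.28 and 4.71 TPM in MI vehicle and at 33.1, 24.8 and 11.9 TPM in MI prednisone. The full-length models Postn-201 (-1.38, limma adjusted p = 0.0228) and Postn-203 (-1.72, limma adjusted p = 0.0115) fell. Short 3′ models thus held 52.7%, 61.0% and 51.9% of *Postn* in MI prednisone and 0% to 23.9% in the other 9 libraries.

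In *Fn1* the contrast was between Fn1-203, a full-length coding model of 7797 bases, and Fn1-202, a retained-intron model of 4022 bases at the 3′ end. Fn1-203 was at 17.8, 25.5 and 17.5 TPM in MI vehicle and at 0.0083, 0.03 and 1.20 TPM in MI prednisone (-3.99, SE 0.30, limma adjusted p = 2.18e-05). It also fell between sham prednisone, at 7.18, 4.58 and 5.34 TPM, and MI prednisone (-2.33, SE 0.30, limma adjusted p = 0.000523). Fn1-202 was at 4.71, 15.1 and 7.39 TPM in MI vehicle and 13.7, 12.9 and 7.14 TPM in MI prednisone (0.37, limma adjusted p = 0.552). Fn1-202 took 69.6%, 66.0% and 60.2% of the TPM of *Fn1* in MI prednisone and 1.84% to 24.0% elsewhere.

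For *Comp*, Comp-201 (2416 bases) fell with prednisone in MI by 2.07 (limma adjusted p = 0.0107) while Comp-203 (495 bases, at the 3′ end) changed by 0.05. Comp-203 took 31.7%, 36.8% and 42.7% of *Comp* in MI prednisone and 5.91% to 13.2% in the other libraries. The 2 main *Sparc* models share their 3′ end and differ at the 5′ side, where Sparc-201 starts further upstream. Sparc-201 fell by 1.60 with prednisone in MI (SE 0.17, limma adjusted p = 0.000158), from 145, 232 and 198 TPM to 67.1, 55.6 and 62.2 TPM, and Sparc-202 changed by -0.08 (limma adjusted p = 0.816).

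**Figure D4:**
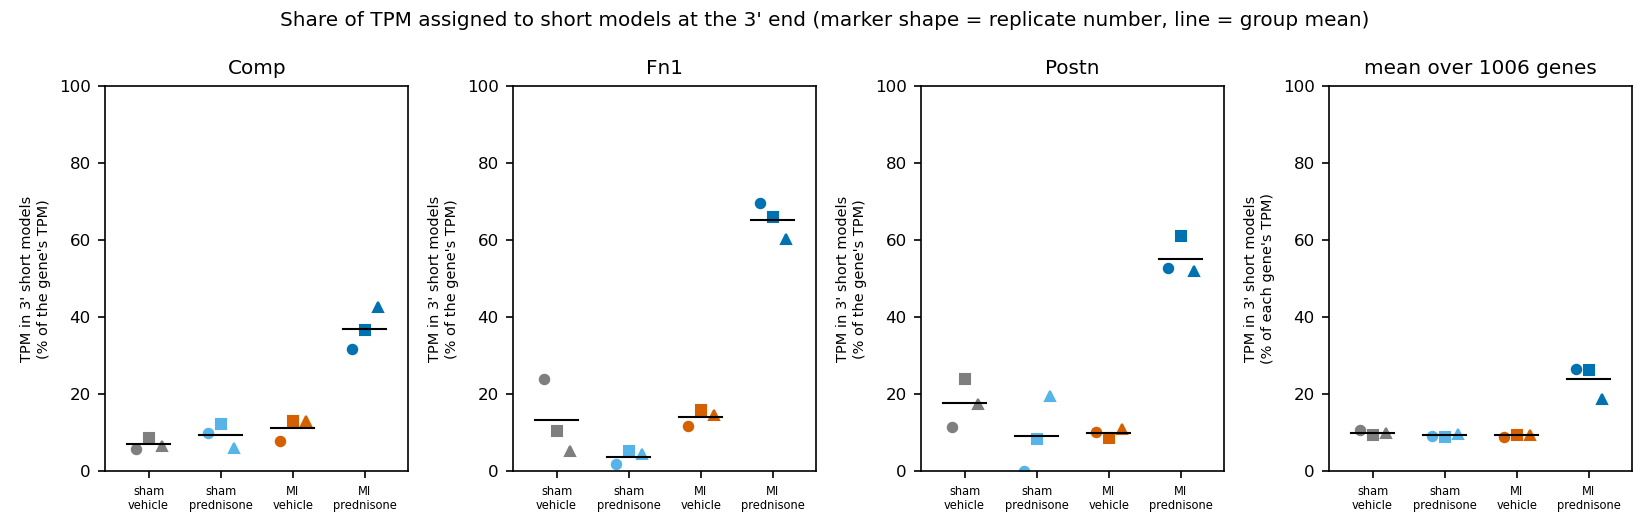
Share of TPM assigned to short models at the 3′ end (%), for *Comp*, *Fn1* and *Postn* and as the mean over 1006 genes, in the 12 libraries by group, with marker shape for the replicate number and a line at the group mean. The 3 MI prednisone libraries are above the other 9 in each panel.

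The shift towards 3′ models was not particular to these genes, since the mean over 1006 genes moved with it, and its part in the changes with prednisone was not tested. Short models at the 5′ end moved the other way, from 14.2% to 15.5% in the other 9 libraries to 10.1%, 10.5% and 11.5% in MI prednisone, as a mean over 3900 genes. A gene sum of TPM gives a short model as much weight per molecule as a long one. When each transcript was weighted by its length (an estimate of its share of reads, chosen after the data were seen), *Postn* fell with prednisone in MI by 1.12 (limma adjusted p = 0.0164) and *Fn1* by 2.46 (0.000959). All 9 tested members were then called lower. With long models only, *Postn* fell by 1.49 (0.00414) and *Fn1* by 3.99 (8.1e-05), and *Fn1* also fell in MI under prednisone (-2.20, 0.00245). Both choices give the short 3′ models less weight or none, and these held more of *Comp*, *Postn* and *Fn1* in MI prednisone. A lower MI prednisone value of these genes is therefore partly built in.

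The weighting touched the rises under prednisone as well. *Comp* was no longer called in MI under prednisone (1.47, limma adjusted p = 0.0771), nor with long models only (1.31, 0.108). *Postn* kept its call with the weighting (1.21, 0.0244) and lost it with long models only (0.79, 0.1). *Cilp* (1.49 with long models), *Thbs4* (1.64 and 1.63) and *Sparc* (0.70 and 0.72) kept theirs in both.

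**Figure D5:**
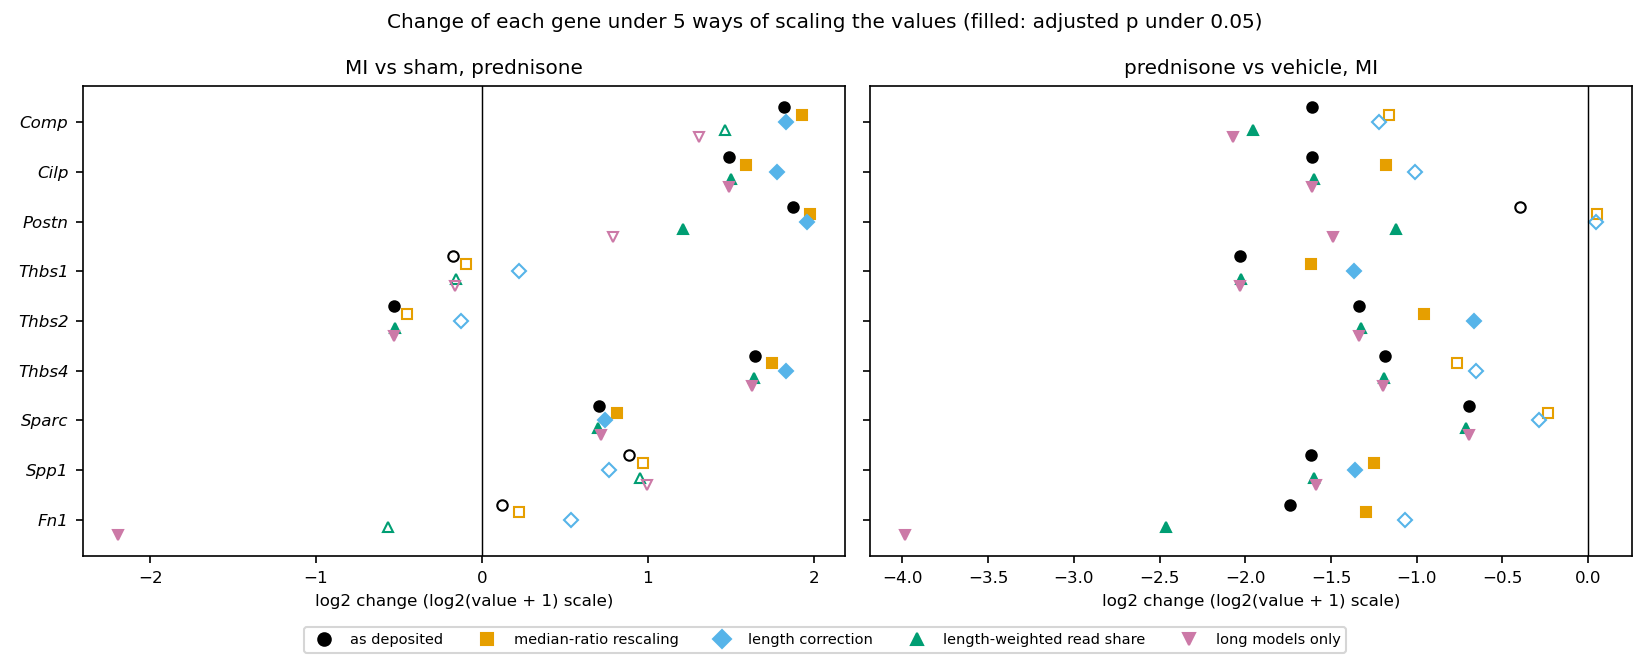
Log2 change of the 9 tested genes in 2 comparisons under 5 ways of scaling the values, with filled markers where the limma adjusted p is under 0.05. *Thbs1*, *Thbs2* and *Spp1* are filled at all 5 in the right panel, *Cilp* and *Thbs4* in the left, and *Fn1* ranges from -3.99 to -1.07 on the right.

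The effect of infarction with prednisone minus that with vehicle, the interaction, contains the MI vehicle and sham vehicle values known when the genes were listed. A negative sign is therefore partly fixed by the choice of genes, and the values are a description with no test. They were -2.34 for *Thbs1*, -2.00 for *Fn1*, -1.89 for *Comp*, -1.78 for *Cilp*, -1.54 for *Spp1*, -1.30 for *Thbs4*, -1.08 for *Thbs2*, -0.70 for *Sparc* and -0.42 for *Postn* on the log2 scale. The median was -1.54 for the members and -0.48 for all genes. The fit over all genes called 21.3% of them (20.7% lower), among them 6 members (*Thbs1*, *Fn1*, *Cilp*, *Spp1*, *Thbs4* and *Thbs2*), from which nothing is read, and none of the 6 when values were rescaled by median ratios or corrected for length.

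A list of 28 other matricellular genes was examined beside the members, of which 20 were tested. Values of this list and of the lists that follow are from gene sums of TPM alone. Their dependence on the short 3′ models was not tested. In MI under prednisone 6 rose and none fell, where 2.73% of all genes were called higher and 14.1% lower. *Wisp2* (the CCN5 gene) changed the most (1.78, SE 0.41, limma adjusted p = 0.0137). *Lgals3* (galectin 3, abundant in macrophages; 1.53), *Thbs3* (1.29), *Ctgf* (the CCN2 gene, a target of TGF-beta signalling; 1.24), *Fbln2* (0.85) and *Vtn* (0.61) were the others. The median of the list was 0.32. With prednisone in MI 9 fell and 1 rose, where 34.9% of all genes were called lower and 2.50% higher. *Fbln5*, an elastic fibre protein, went from 12.8 ± 3.00 to 4.42 ± 1.13 TPM (SD, n = 3 each; -1.34, limma adjusted p = 0.0011), and *Wisp2* (-1.23), *Tgfbi* (-0.75), *Sparcl1* (-0.59) and *Smoc2* (-0.45) also fell. *Vtn*, which encodes vitronectin of the blood plasma, rose (0.53, SE 0.12, 0.00618). *Ctgf* (-0.68, 0.0931), *Cyr61* (the CCN1 gene; 0.02) and *Thbs3* (0.69, 0.132) were not called. The list had a median of -0.52, near that of all genes. In MI under vehicle 13 stood higher (15.1% of all genes) and none lower, and none of the list was called in sham hearts.

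Receptors through which these proteins act formed a list of 20 genes, all tested. With prednisone in MI 11 fell and 2 rose (34.9% and 2.50% of all genes), and the list had a median of -0.71. *Cd36*, a thrombospondin receptor that is also the fatty acid transporter of heart muscle, fell by 1.06 (SE 0.16, limma adjusted p = 0.00124), *Itga8* by 1.14, *Cd44* by 1.04, *Itgb1* by 0.83 and *Sdc4* by 0.67. *Stab1*, a scavenger receptor that takes up osteonectin, rose by 0.95 (SE 0.24, limma adjusted p = 0.0103) and *Lrp1*, which clears thrombospondins, by 0.48 (0.0452). *Cd47* (-0.38), *Itgav* (-0.22) and *Itgb3* (-0.33) were not called. In MI under prednisone 2 rose, *Lrp1* (1.57) and *Stab1* (1.54), and 4 fell, with *Cd36* (-1.28) the most. Of all genes 2.73% rose and 14.1% fell there. Under vehicle 9 stood higher in MI (15.1% of all genes) and none lower.

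Of 16 genes of the TGF-beta arm, which induces several of the members, 14 fell with prednisone in MI and none rose (median -0.93). Of all genes 34.9% were called lower and 2.50% higher in that comparison. *Tgfbr2*, a receptor of TGF-beta, fell by 1.66 (SE 0.19, limma adjusted p = 0.000593), *Tgfb3* by 0.94, *Tgfb1* by 0.75 and *Tgfb2* by 0.59. In MI under prednisone *Ltbp2*, a latent TGF-beta binding protein, was the only one called higher (1.49, limma adjusted p = 0.0213), and 4 fell. The shares of all genes there were 2.73% higher and 14.1% lower. Without the drug 11 stood higher in MI (15.1% of all genes). Of the 8 listed collagens, the 7 tested all fell with prednisone in MI (median -1.54, with *Col1a2* at -1.73), and none was called in MI under prednisone (median 0.04). *Fn1*, *Thbs1* and *Spp1* had the same pair of calls as the collagens, lower with prednisone in MI and not called in MI under prednisone. *Comp*, *Cilp*, *Postn*, *Thbs4* and *Sparc* were called higher in MI under prednisone, of which *Comp* and *Postn* were not with long models only. This describes the calls, and no difference between these genes was tested.

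Markers of other cells are given beside the members. With prednisone in MI 34.9% of all genes were called lower and 2.50% higher, which is the background for the counts below. Fewer cells of a type and less RNA per cell cannot be told apart in tissue RNA. The 8 cardiac fibroblast markers summed to 903 to 1156 TPM in the sham groups, 1598 to 1832 TPM in MI vehicle and 772 to 1295 TPM in MI prednisone, and 5 of 8 fell with prednisone in MI. The 8 myofibroblast markers summed to 84.9 to 87.7 TPM in sham, 124 to 237 TPM in MI vehicle and 92.5 to 125 TPM in MI prednisone (5 of 8 fell). The 10 macrophage markers, of a cell type that makes osteopontin, summed to 280 to 425 TPM in sham, 624 to 1352 TPM in MI vehicle and 313 to 566 TPM in MI prednisone (7 of 10 fell). None of these lists had a marker called higher with prednisone in MI, and their part in the members' changes was not tested.

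Under prednisone, MI against sham called 1 of 8 fibroblast markers higher (*Mfap5*, 0.84), 1 of 8 myofibroblast markers higher (*Meox1*, 1.00) and 1 of 10 macrophage markers in each direction (*Gpnmb*, 0.85, and *Cd163*, -0.59), beside 5 of 9 members higher. Of all genes 2.73% were called higher and 14.1% lower in that comparison. Of the atrial markers, 3 of 4 were called higher with prednisone in MI, *Myl7* (2.04), *Sln* (2.03) and *Myl4* (1.98). Their list summed to 2802 to 4106 TPM in MI vehicle and 4335 to 6173 TPM in MI prednisone. Most of that sum was *Nppa* (means of 2706 and 3319 TPM), which was not called (0.29, limma adjusted p = 0.49). Cardiomyocyte markers summed to 30114 to 38534 TPM in MI vehicle and 43500 to 46607 TPM in MI prednisone, with 3 of 8 called higher. The 8 markers of scar, tendon and cartilage cells, 6 of them tested, summed to 54.1 to 82.5 TPM in MI vehicle and 20.5 to 40.3 TPM in MI prednisone, with 2 lower (*Fmod* the most, by 1.89). Epicardial or mesothelial markers (3 of 4 lower with prednisone in MI), endothelial markers (1 higher and 2 lower of 6), smooth muscle and pericyte markers (1 lower of 5), adipocyte markers (0 of 4) and blood genes (0 of 5) complete the lists.

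The genes whose levels ran most alike were sought among 8116 tested genes whose mean reached 5 TPM, by Pearson correlation of log2(TPM + 1) over the same 12 libraries, as a description. *Cilp* and *Thbs4* were each other's nearest gene (r = 0.993, and 0.991 without replicate 3 of MI vehicle). *Comp* ran with *Sfrp2* (0.990), *Mfap4* and *Wisp2*, and *Sparc* with *Ltbp2* (0.990), *Gja4* and *Mfap5*. *Postn* ran with *Fbln2* (0.983), *Gdf15* and *Mdk*, *Spp1* with *Synpo2l* (0.984), *Col8a1* and *Ltbp2*, and *Fn1* with *Col1a2* (0.981), *Col1a1* and *Col5a2*. *Thbs1* was nearest to *Mafk* (0.956), *Thbs2* to *Bicc1* (0.970) and *Tnc* to *Actn1* (0.981, and 0.964 without replicate 3 of MI vehicle). Among the members themselves, r was 0.986 between *Comp* and *Cilp* and 0.187 between *Postn* and *Thbs2*.

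In GENCODE M21 (GRCm38) the members lie on 10 different chromosomes: *Fn1* at chromosome 1, 71585520 to 71653200 (minus strand), *Thbs1* at chromosome 2, 118111876 to 118127133, *Postn* at chromosome 3, 54361109 to 54391037, *Tnc* at chromosome 4, 63959785 to 64047015 (minus), and *Spp1* at chromosome 5, 104435118 to 104441050. *Comp* is at chromosome 8, 70373558 to 70382066, *Cilp* at chromosome 9, 65265180 to 65280605, *Sparc* at chromosome 11, 55394500 to 55423183 (minus), *Thbs4* at chromosome 13, 92751590 to 92794818 (minus), and *Thbs2* at chromosome 17, 14665500 to 14694235 (minus). Those without a strand given are on the plus strand.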

How the data were processed

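RNA of 12 mouse heart samples was sequenced by the authors from stranded, poly(A)-selected libraries, per the labels' protocols. Trimmomatic, HISAT2, kallisto and the mm10 build are named, without roles or versions, in the submitters' processing notes. The deposited values are TPM per transcript, which were summed here by gene symbol. Read depth is not kept in TPM, so no counting error could be given. Genes that reached 1 TPM in 3 or more of the 12 samples (13158 genes, and likewise 27769 transcripts) were fitted on log2(TPM + 1) with limma 3.58.1 in R 4.3.3 (4 group means, intensity trend), with Benjamini-Hochberg adjustment over all of them. Fold changes on this scale understate those of low genes. Each mouse is 1 sample, and 3 against 3 mice cannot give an exact permutation p below 0.1.

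The members and gene lists were chosen with earlier results of these data known. Values were named for all 10 members, for fixed genes of each list, and for the called list gene with the largest change in each direction; other list genes were named after their values were seen, and 1 gene that the rule names is not reported here. Transcript lengths and exons came from GENCODE M21, where 94.7% of rows matched by versioned ID. Alternatives were median-ratio rescaling, removal of mitochondrial and globin rows, no filter, a pseudocount of 0.1, no trend, the most abundant transcript, a replicate block, only the groups compared, a loess length correction and leaving out each mouse. Length weighting and long models only were added after the data were seen. Same-numbered mice did not deviate together (mean correlation between -0.37 and 0.0028 over the pairs of groups), so the numbers were not taken as pairs. Scripts were tested on simulated data.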

Additional observations from a re-analysis of the deposited data

Results flagged for a closer look

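The effect of infarction with prednisone minus that with vehicle passed the threshold of the fit over all genes (limma, interaction term) for 6 of the 9 tested members, as it did for 21.3% of all genes (20.7% lower, with a median of -0.48). The value was -2.34 for *Thbs1* (SE 0.56), -2.00 for *Fn1* (SE 0.46), -1.78 for *Cilp* (SE 0.45), -1.54 for *Spp1* (SE 0.49), -1.30 for *Thbs4* (SE 0.38) and -1.08 for *Thbs2* (SE 0.22), on the log2 scale. The vehicle libraries with which the genes were listed enter each value, so the negative sign is partly built in and the count is no independent test, and *Spp1* passed the filter only through its MI libraries. None of the 6 passed the threshold when values were rescaled by median ratios or corrected for length.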

How the results depend on the processing

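Among the values recomputed under the alternatives, 683 kept their direction and their side of the threshold, 124 lost a call, 14 gained one and 34 changed sign. Members called between MI and sham under vehicle numbered 9, against 2 with only these groups in the fit and 6 with the length correction and replicate block together (7 to 9 on leaving out 1 mouse). Under prednisone they numbered 6, against 3 without the filter and 4 with the length correction and replicate block (3 to 5). With prednisone in MI they numbered 8, against 5 after median-ratio rescaling, 3 with only these groups or the length correction, and 4 with the length correction and replicate block (6 to 9). The interaction gave 6, against 0 after median-ratio rescaling, the length correction, or that with the block, and 4 without the filter (2 without replicate 3 of sham vehicle to 8 without replicate 1 of MI vehicle).

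The replicate block gave 8, 5, 8, 0 and 4 calls in the comparisons MI against sham under vehicle and under prednisone, prednisone in MI and in sham, and the interaction. The numbers only label different mice: the mean correlation of same-numbered mice was at most 0.0028 in each pair of groups, and the highest single one was 0.136.

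Signs turned for *Fn1* in MI under prednisone (-2.33 for the most abundant transcript, -0.57 by read share, -2.20 with long models), *Thbs1* there (0.22 with the length correction, with or without block, and -0.40 to 0.081 on leaving out 1 mouse) and *Postn* with prednisone in MI (0.054 after median-ratio rescaling, 0.048 with both length corrections). The *Postn* interaction became 0.11 after median-ratio rescaling and 0.092 with both length corrections. With prednisone in sham, where no member was called, *Postn* became -0.061, -0.050, -0.43 and -0.044 under median-ratio rescaling, removed rows, the most abundant transcript and both length corrections, and *Sparc* became -0.089, -0.075, -0.035 and -0.056 under the same, -0.0041 by read share and -0.0033 with long models. Leaving out 1 mouse gave -0.059 to 0.16 for *Postn*, -0.091 to 0.062 for *Sparc*, -0.19 to 0.043 for *Spp1* and -0.038 to 0.45 for *Fn1* there. The cause of each change was not tested. TPM hold no depth, so what depth limits is unknown.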
